A study of Homo sapiens with 12 samples.

Results

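Cells of the human line AC16 in which EP300 had been knocked down were compared after and without exposure to hydrogen peroxide (H2O2), by RNA sequencing. The comparison takes the 3 libraries given an EP300 siRNA and then H2O2 (siEP300.H2O2, libraries 10, 11 and 12) and the 3 given the EP300 siRNA alone (siEP300, libraries 4, 5 and 6), chosen by the group names of their columns. These are 6 of the 12 libraries of the study, and all genes were taken: 13171 of the 17197 gene symbols in the table had enough counts to be tested. The other 6 libraries received a negative control siRNA, with H2O2 (siNC.H2O2, libraries 7, 8 and 9) or without it (siNC, libraries 1, 2 and 3), and share no library with the comparison. AC16 is an established line made by fusing adult ventricular heart cells with transformed fibroblasts. Every group was transfected in serum-free medium; 12 h later the exposed groups had H2O2 for 1 h, at a dose the labels write as 200 mM, followed by complete medium, and RNA was taken after 48 h. A treatment field of the labels names siMLF1 where the titles say siEP300; groups follow the titles. No label states if libraries with the same treatment were separate cultures, so each p-value measures the spread between libraries, which may be technical.

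EP300 encodes p300, a lysine acetyltransferase that acetylates histones and transcription factors and serves as a coactivator of p53, NF-kB and AP-1. H2O2 damages DNA, lipids and protein thiols. Cells answer it through p53, which halts the cell cycle, through the MAP kinases that induce AP-1 subunits, through NF-kB, which induces cytokines, and through NRF2, which induces antioxidant enzymes. ATF4, the factor of amino acid shortage, and SREBP2, the factor of sterol shortage, drive biosynthetic programmes that stress can move in either direction.

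EP300 had 30.1, 26.9 and 26.5 CPM (counts relative to the scaled library total) in the siEP300.H2O2 libraries, against 36.3, 36.8 and 36.7 CPM in the siEP300 libraries. It had 76.7 ± 15.3 CPM in siNC.H2O2 and 83.3 ± 16.1 CPM in siNC (mean ± SD, n = 3 each). Both EP300 siRNA groups lay below every control siRNA library. The H2O2 difference in EP300 under its siRNA was a log2 fold change of -0.40 ± 0.15 (± SE) and missed the threshold, with an adjusted p of 0.0531 in edgeR's quasi-likelihood test with Benjamini-Hochberg adjustment over all genes. DESeq2 called it, with an adjusted p of 0.0283. MLF1, the gene named in the other field, averaged 42.2 ± 0.656 CPM in siEP300.H2O2, against 51.4 ± 0.291 CPM in siNC.H2O2, and 40.9 ± 1.94 CPM in siEP300, against 47.5 ± 2.47 CPM in siNC. It was thus also lower with the EP300 siRNA, by log2 fold changes of -0.29 ± 0.06 with H2O2 (edgeR adjusted p = 0.000686) and -0.22 ± 0.06 without it (edgeR adjusted p = 0.00519).

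The 6 libraries held between 17623688 and 18730365 counts, so depth differed little between the groups. Within groups, 1 axis of variation carried 28.6% of the spread, and its gene loadings followed gene length (Spearman's rho 0.70 across genes, which are not independent). Library 10 stood apart from libraries 11 and 12 on this axis, with a score of 15.8 against -10.15 and -5.649; libraries 7 and 1 stood apart in the control siRNA groups. Across genes, the H2O2 log2 fold change under EP300 siRNA also had a weak relation to gene length (Spearman's rho -0.17, against -0.03 under control siRNA). The part of this axis in the results was not tested. The count of called genes is given with and without library 10 and, in a later section, with the gene length trend removed. The cardiomyocyte label was checked against 30 markers, of which 13 had enough counts to be tested. TNNT2, MYH6, MYH7, MYL2, MYL7, CKM, MB and KCNQ1 had a median of 0 counts over the 12 libraries. The first 5 of these encode sarcomere proteins of heart muscle. The sarcomere gene TTN had a median of 100.0 counts, and ATP2A2, the calcium pump, 10330 counts. Other members of the list were also present. GATA4, GATA6, NPPB, CKB and GJA1 had medians of 195, 602.5, 784, 762.5 and 2502 counts. COL1A1, a collagen gene of fibroblasts, had a median of 79950 counts.

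A large share of genes differed with H2O2 in EP300 knockdown cells. At an adjusted p under 0.05, 4095 of 13171 genes were called (31.1%): 2100 were higher with H2O2 (15.9%) and 1995 were lower (15.1%). Most differences were small. A difference of at least 2-fold was seen in 179 higher genes (1.36% of all genes tested) and 175 lower ones (1.33% of all genes tested). The median log2 fold change over all genes was -0.00038. Without library 10, 3923 genes were called. On the deposited FPKM values, tested with limma, 1764 genes were higher and 2216 lower, so the balance turned with that scaling. Cytokines led the rises, and genes of amino acid metabolism, complement and cell junctions were among the leading falls.

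**Figure D1:**
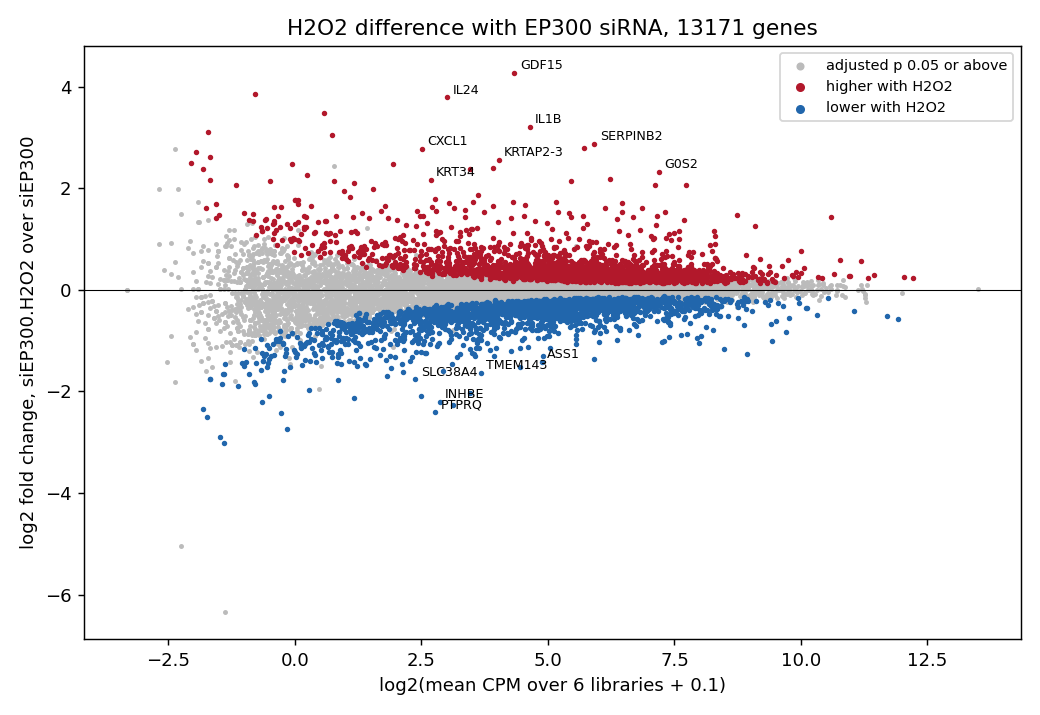
Log2 fold change of siEP300.H2O2 over siEP300 (vertical) against log2 of the mean CPM over the 6 libraries plus 0.1 (horizontal), 1 point per gene for 13171 genes. Red and blue points are the 2100 higher and 1995 lower genes at an adjusted p under 0.05. GDF15 lies highest, at 4.27, and the labelled falls lie between -1.36 and -2.41.

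The leading rises were defined as the 12 largest called differences at a mean level of 5 CPM or more. They were secreted signals (GDF15, IL24, IL1B, IL11, CXCL1 and CXCL8), a protease inhibitor (SERPINB2), a transglutaminase (TGM2), a lipase inhibitor (G0S2), a transcription factor subunit (FOSL1), a hair keratin gene (KRT34) and a keratin-associated protein gene (KRTAP2-3). GDF15, a stress-induced cytokine of the TGF-beta superfamily, had 30.7, 37.2 and 46.8 CPM in siEP300.H2O2, against 2.02, 1.93 and 1.96 CPM in siEP300, a 19.3-fold difference (log2 4.27 ± 0.17, edgeR adjusted p = 3.26e-10). All 3 exposed libraries lay far above the unexposed ones. IL24, a cytokine of the IL-10 family, had 13.9, 14.6 and 16.1 CPM with H2O2, against 1.31, 0.963 and 0.927 CPM without it (log2 3.79 ± 0.16). IL1B, the NF-kB-dependent inflammatory cytokine, had 40.9, 44.5 and 48.9 CPM in siEP300.H2O2 and 5.41, 4.82 and 4.25 CPM in siEP300 (log2 3.21 ± 0.12). Neither gene's groups overlapped, and the spread within each was small beside the gap. SERPINB2, an inhibitor of urokinase, averaged 106 ± 12.8 CPM in siEP300.H2O2 and 14.5 ± 1.02 CPM in siEP300 (SD, n = 3 each). IL11, a cytokine of the IL-6 family that acts on fibroblasts, had 74.2, 102 and 98.3 CPM with H2O2, against 14.1, 12.3 and 12.9 CPM without it (log2 2.80 ± 0.12). The 2 groups were again well apart.

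The neutrophil-attracting chemokines moved in the same direction. CXCL1 had 10.2, 9.55 and 9.48 CPM in siEP300.H2O2, against 1.58, 1.47 and 1.199 CPM in siEP300. CXCL8 had 16.3, 19.9 and 18.6 CPM with H2O2, against 3.44, 3.91 and 3.22 CPM without it. Each exposed library exceeded each unexposed one in both genes. G0S2, which inhibits the lipase that opens lipid droplets, averaged 245 ± 31.2 CPM with H2O2 and 48.8 ± 1.08 CPM without it (log2 2.33 ± 0.13). FOSL1, the AP-1 subunit FRA1, averaged 122 ± 13.5 CPM in siEP300.H2O2 and 26.8 ± 1.14 CPM in siEP300 (log2 2.19 ± 0.09). TGM2, which cross-links proteins, differed by 2.41 ± 0.10, KRTAP2-3 by 2.56 ± 0.16 and KRT34 by 2.17 ± 0.22. The 12 adjusted p-values lay between 1.36e-10 and 4.85e-06, and all 12 genes kept their call under every alternative processing. TGM2 overlaps RPRD1B and SERPINB2 overlaps SERPINB10 in the annotation. KRTAP2-3 has near-identical relatives, so how its reads were shared among them is uncertain.

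**Figure D2:**
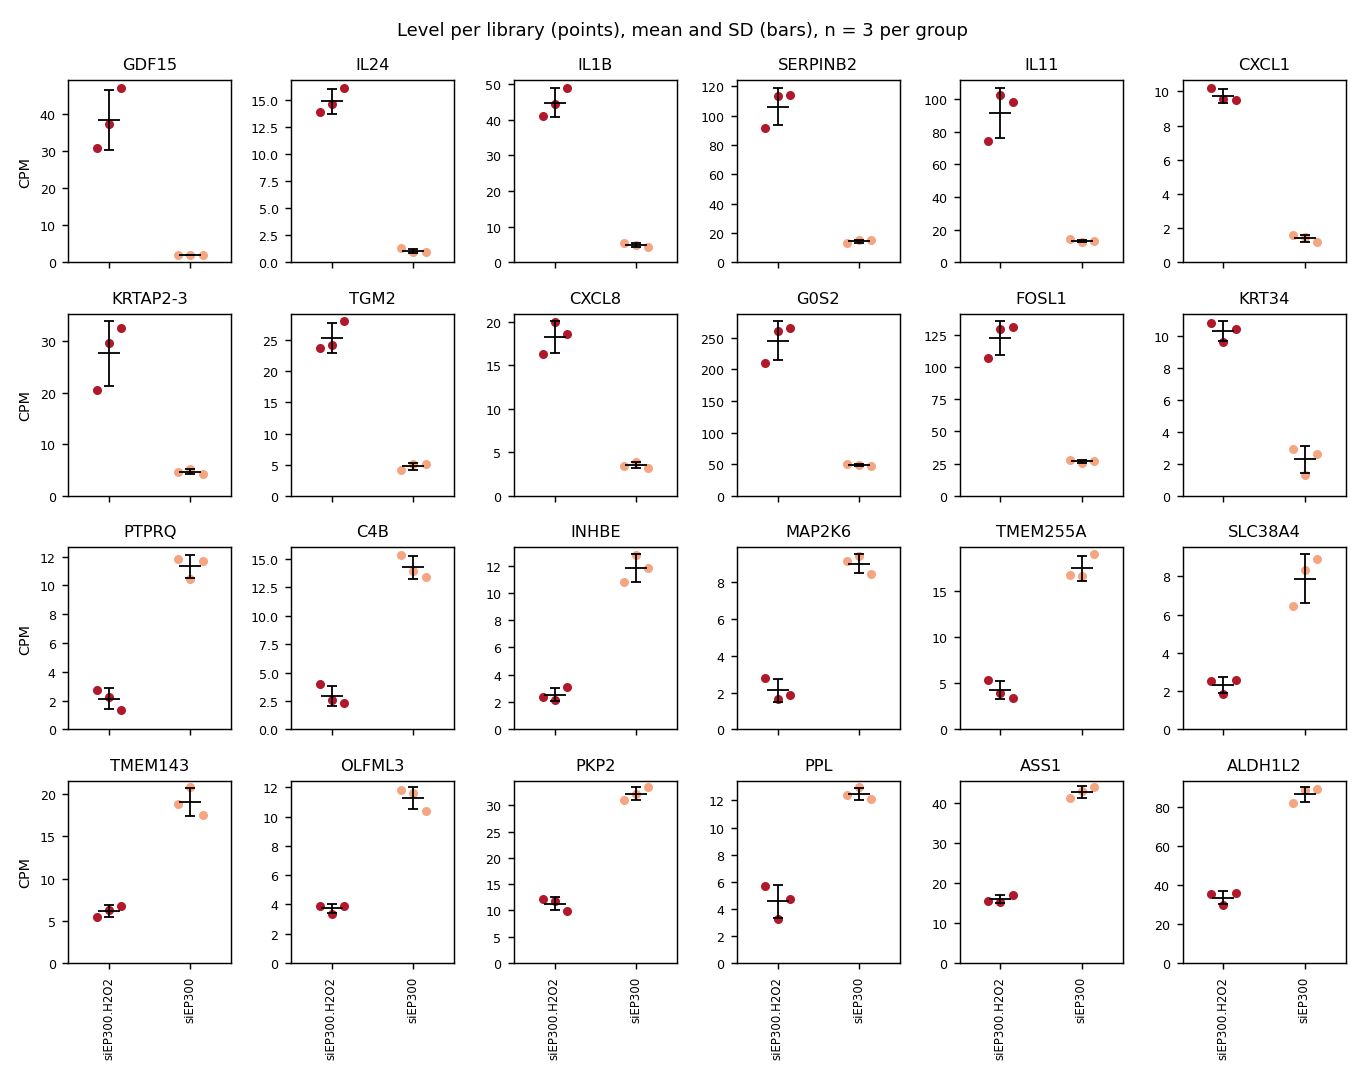
CPM per library (points) with the mean and SD (bars, n = 3) for siEP300.H2O2 (left) and siEP300 (right), 1 panel per gene and each axis from 0, for the 12 leading rises and then the 12 leading falls. In every panel the 3 points of the groups are apart, which the rule for choosing these genes required. GDF15 averaged 38.2 CPM with H2O2 and 1.97 CPM without it.

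The promoters of 3 leading rises are shown because each holds TGANTCA, the letters of the AP-1 site that FOSL1 and its partners recognise. They are the 250 bases upstream of the RefSeq start on GRCh38.p14, read 5′ to 3′ on the gene's strand with the match in capitals: IL11 at chr19:55370464-55370713 (minus strand), SERPINB2 at chr18:63887455-63887704 (plus strand) and CXCL8 at chr4:73740319-73740568 (plus strand).
IL11: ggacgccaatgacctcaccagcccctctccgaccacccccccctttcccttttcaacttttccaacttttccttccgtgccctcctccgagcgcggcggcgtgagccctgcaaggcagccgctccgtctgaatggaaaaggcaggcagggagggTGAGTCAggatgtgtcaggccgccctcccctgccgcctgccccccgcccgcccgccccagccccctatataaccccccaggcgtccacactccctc
SERPINB2: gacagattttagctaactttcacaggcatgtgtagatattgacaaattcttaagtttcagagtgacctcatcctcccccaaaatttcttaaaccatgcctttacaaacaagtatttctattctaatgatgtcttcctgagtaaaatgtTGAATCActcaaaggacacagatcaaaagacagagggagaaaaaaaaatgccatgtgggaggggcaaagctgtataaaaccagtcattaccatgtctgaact
CXCL8: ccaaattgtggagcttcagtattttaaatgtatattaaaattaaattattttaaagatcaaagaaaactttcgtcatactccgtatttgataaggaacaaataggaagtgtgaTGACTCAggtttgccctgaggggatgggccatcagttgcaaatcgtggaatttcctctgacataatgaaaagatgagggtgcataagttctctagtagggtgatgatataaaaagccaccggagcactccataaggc
The matches begin 96, 102 and 137 bases before the start in IL11, SERPINB2 and CXCL8. Shares of promoters were counted over a window that also reaches a short way past the start. Searched on both strands, TGANTCA stood in 4.56% of the 10664 tested genes' promoters in RefSeq. It stood in 6.52% of the promoters of genes that rose, in 3.94% of those that fell, and in 23 of 127 promoters (18.1%) of genes that rose at least 2-fold. Among genes that fell at least 2-fold it stood in 8 of 126 (6.35%). Its matches overlapped those of the antioxidant response element core in 9 promoters. A match is a description of the letters and shows no binding.

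The 12 leading falls mixed signalling, metabolic and junction genes. PTPRQ, a receptor-type phosphatase, had 2.76, 2.29 and 1.32 CPM in siEP300.H2O2, against 11.8, 10.4 and 11.7 CPM in siEP300 (log2 -2.41 ± 0.22). C4B, a complement component whose reads may not be separable from those of its copy C4A, had 3.97, 2.57 and 2.32 CPM with H2O2, against 15.3, 13.9 and 13.4 CPM without it (log2 -2.26 ± 0.17). INHBE, an activin subunit, had 2.37, 2.17 and 3.09 CPM with H2O2, against 10.8, 12.8 and 11.8 CPM without it (log2 -2.21 ± 0.14). In all 3 genes the exposed libraries were below every unexposed one. MAP2K6, the kinase that activates p38, fell by 2.08 on the log2 scale (SE 0.17). PKP2 and PPL, which encode desmosome-associated plakophilin and periplakin, had log2 fold changes of -1.52 ± 0.11 and -1.45 ± 0.14. The amino acid transporter SLC38A4 differed by -1.76 ± 0.18, and ASS1, which makes argininosuccinate on the way to arginine, by -1.42 ± 0.09.

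ASS1 averaged 15.99 ± 0.909 CPM in siEP300.H2O2 and 42.8 ± 1.42 CPM in siEP300, and ALDH1L2, a mitochondrial folate enzyme, averaged 33.6 ± 3.398 CPM in siEP300.H2O2 and 86.7 ± 3.99 CPM in siEP300 (SD, n = 3 each; log2 -1.36 ± 0.10). TMEM255A, TMEM143 and the secreted protein gene OLFML3 completed the falls, with log2 fold changes of -2.03 ± 0.14, -1.63 ± 0.11 and -1.59 ± 0.12. PPL overlaps SEC14L5 and ALDH1L2 overlaps NOPCHAP1. The edgeR adjusted p-values of the 12 falls lay between 3.7e-08 and 4.05e-06, and each kept its call under every alternative.

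Gene lists of known stress programmes were then read against the shares over all genes, 15.9% higher and 15.1% lower. Of 27 tested p53 targets, 19 rose and 1 fell, with a median log2 fold change of 0.56. CDKN1A, the p21 inhibitor that halts the cell cycle, had 207, 217 and 249.6 CPM in siEP300.H2O2, against 52.8, 55.6 and 51.7 CPM in siEP300 (log2 2.07 ± 0.08). BTG2, an antiproliferative gene, had 35.05, 36.2 and 34.5 CPM with H2O2, against 11.3, 11.3 and 10.8 CPM without it (log2 1.66 ± 0.09). The nuclease gene AEN had 142, 158 and 153 CPM in siEP300.H2O2, against 56.6, 54.97 and 55.8 CPM in siEP300 (log2 1.43 ± 0.06). In each of these genes the exposed libraries were all higher, with gaps wider than the spread within either group. The share of all genes tested whose libraries were apart in this way is not given. Such separation, here and in the lists below, therefore describes the named gene alone. Of 29 BCL2 family and death receptor genes, 12 rose and 3 fell (median 0.17). The death receptor FAS differed by 1.43 ± 0.09 and TNFRSF10B, the TRAIL receptor, by 0.59 ± 0.06; BID, which links such receptors to mitochondria, differed by 0.75 ± 0.08 and the anti-apoptotic BCL2L1 by 0.48 ± 0.06. FAS overlaps ACTA2, and TNFRSF10B overlaps RHOBTB2.

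**Figure D3:**
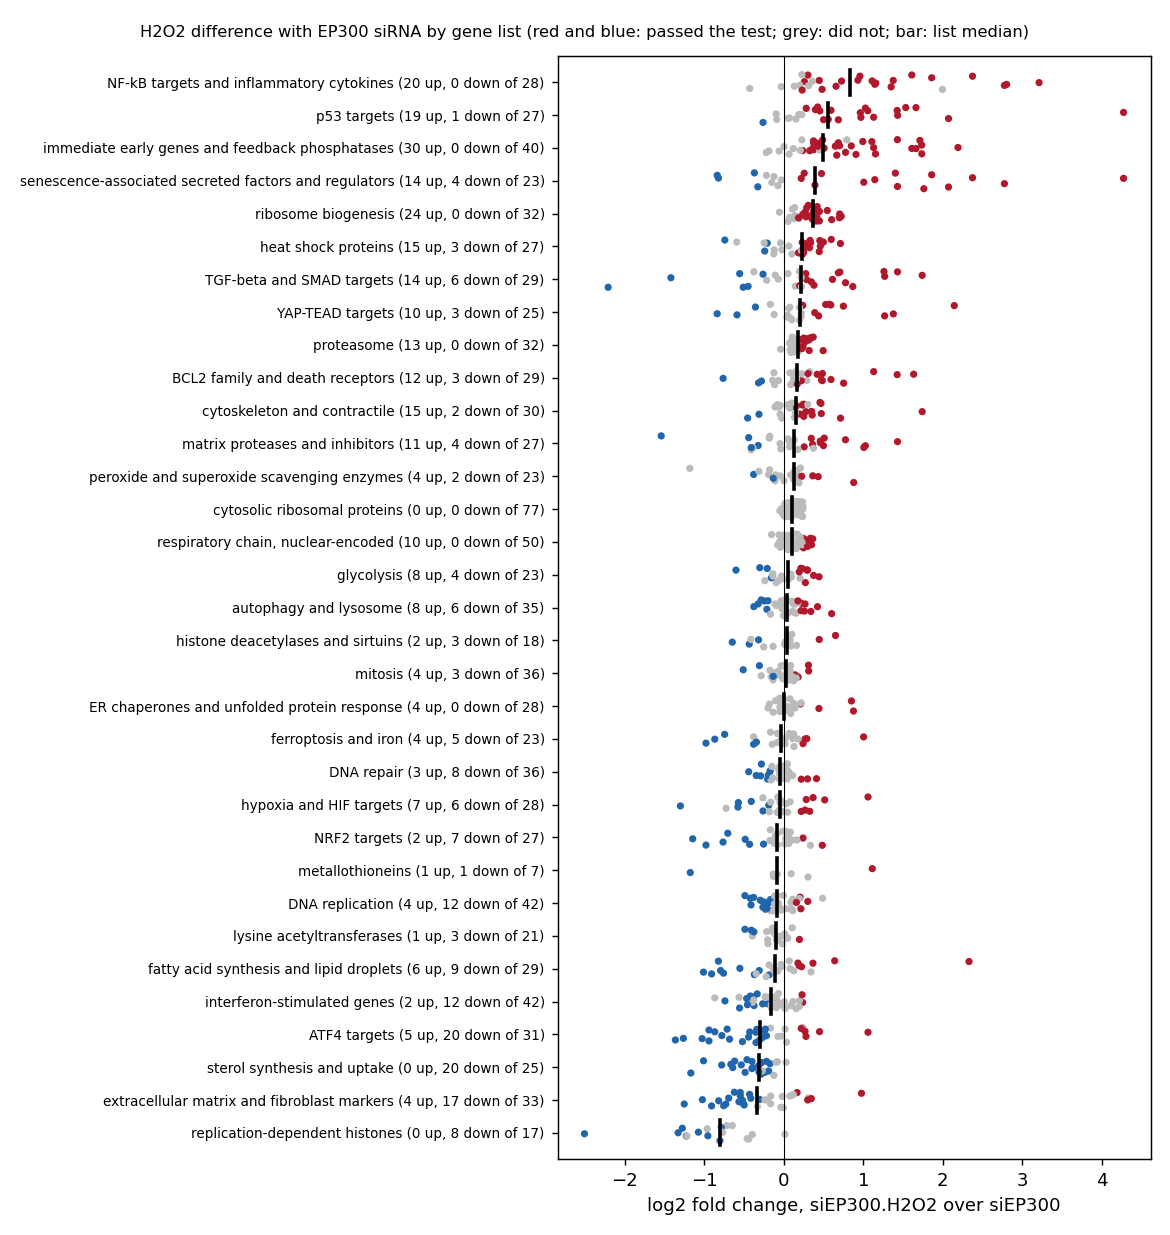
Log2 fold change of siEP300.H2O2 over siEP300 (horizontal) for the tested genes of each list (1 row per list, 1 point per gene, sorted by the median, drawn as a bar). Red points are higher and blue points lower with H2O2 at an adjusted p under 0.05, and grey points did not pass. NF-kB targets have the highest median, 0.83, and replication-dependent histones the lowest, -0.80.

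Most immediate early and feedback phosphatase genes rose. Of 40 immediate early genes and feedback phosphatases, 30 rose and 0 fell in edgeR (median 0.50; 1 was lower at an unadjusted p under 0.05 and 0 in DESeq2). DUSP6, a phosphatase that switches off ERK, had 50.4, 56.6 and 56.9 CPM in siEP300.H2O2, against 16, 17.9 and 15.4 CPM in siEP300. DUSP4, a nuclear relative, had 61.3, 65.7 and 63.9 CPM with H2O2, against 24.6, 23.6 and 22.7 CPM without it. SPRY4, an inhibitor of receptor kinase signalling, had 30.96, 31.2 and 28.9 CPM with H2O2, against 8.79, 8.84 and 9.702 CPM without it (log2 1.74 ± 0.07). No exposed library overlapped an unexposed one in these 3 genes.

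Inflammatory genes under NF-kB had the highest median among the lists. Of 28 tested, 20 rose and 0 fell in edgeR (median 0.83; 0 also fell at an unadjusted p under 0.05 and in DESeq2), among them IL1B, IL11 and CXCL1 described above. TNFAIP3, the A20 enzyme that shuts NF-kB signalling down, had 38.8, 36.8 and 40.03 CPM in siEP300.H2O2, against 15.2, 15.1 and 14.99 CPM in siEP300 (log2 1.35 ± 0.07, edgeR adjusted p = 2.98e-09). Of 23 senescence-associated secreted factors and regulators, 14 rose and 4 fell (median 0.39); its members CDKN1A, GDF15 and CXCL1 stand in other lists as well. In contrast, interferon-stimulated genes fell more often than they rose: 12 of 42 were lower and 2 were higher (median -0.16). IFIT1, which binds viral RNA and overlaps LIPA, averaged 25.5 ± 2.61 CPM with H2O2 and 42.7 ± 2.16 CPM without it. STAT2, a subunit of the interferon-activated factor, averaged 131 ± 9.43 CPM with H2O2 and 192 ± 5.87 CPM without it. The 2 rises of that list became 0 without library 4 and 1 without library 10 or 5.

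CXCL1 and TNFAIP3 are shown for the NF-kB letters GGGNN followed by TTTCC, a search chosen after the values were seen. Both promoters are on the plus strand of GRCh38.p14, CXCL1 at chr4:73869143-73869392 and TNFAIP3 at chr6:137867009-137867258, and capitals mark the matches, which in TNFAIP3 lie on the opposite strand.
CXCL1: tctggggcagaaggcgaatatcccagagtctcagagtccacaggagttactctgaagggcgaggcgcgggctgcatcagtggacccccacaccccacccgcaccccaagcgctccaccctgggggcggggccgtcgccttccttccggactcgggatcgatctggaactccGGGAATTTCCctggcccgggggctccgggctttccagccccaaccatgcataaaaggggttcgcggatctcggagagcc
TNFAIP3: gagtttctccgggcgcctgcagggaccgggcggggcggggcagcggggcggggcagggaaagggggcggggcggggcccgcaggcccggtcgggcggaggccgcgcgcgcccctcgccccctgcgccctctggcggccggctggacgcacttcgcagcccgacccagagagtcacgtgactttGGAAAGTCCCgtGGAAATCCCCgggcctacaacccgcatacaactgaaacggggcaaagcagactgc
The CXCL1 match begins 79 bases before the start and the TNFAIP3 matches 67 and 55 bases before it. The letters were in 10 of 23 promoters of the NF-kB list (43.5%), against 2.13% of all promoters. In a separate search, the core of the interferon response element, GAAA and after any 2 bases GAAA, was in 20 of 33 promoters of the interferon list (60.6%), against 2.84% of all. Shares of a list, here and below, count its tested members with a promoter, whichever way they moved. They describe lists of known targets and not the H2O2 change.

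Matrix genes fell more often than they rose. Of 33 extracellular matrix and fibroblast genes, 17 fell and 4 rose (median -0.33). COL1A1, the major fibrillar collagen chain, had 3077, 3219 and 3036 CPM in siEP300.H2O2, against 4569, 4548 and 4686 CPM in siEP300 (log2 -0.56 ± 0.05, edgeR adjusted p = 2.24e-06). COL3A1, its partner in elastic tissues, had 319, 254 and 299.8 CPM with H2O2, against 681, 669 and 729 CPM without it. The small proteoglycan LUM had 45.6, 37.96 and 44.05 CPM in siEP300.H2O2, against 82.7, 88.3 and 88.8 CPM in siEP300. The exposed libraries were lower in each of the 3 genes without overlap. LOXL1, which cross-links elastin, differed by -0.91 ± 0.06, and the growth factor receptor PDGFRB by -0.73 ± 0.08. THBS1, the matricellular thrombospondin, was a member that rose, with 233, 222 and 227 CPM in siEP300.H2O2, against 112, 113 and 122 CPM in siEP300. Its 3 exposed libraries were all higher, and it overlaps FSIP1. The 4 rises of the list became 2 without library 12 or without library 5.

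Genes that regulate matrix turnover rose more often than they fell. Of 27 matrix proteases and inhibitors, 11 rose and 4 fell (median 0.13). PLAUR, the urokinase receptor, had 160.1, 193 and 196 CPM in siEP300.H2O2, against 89.99, 87.2 and 92.3 CPM in siEP300 (log2 1.03 ± 0.08, edgeR adjusted p = 3.62e-07). TIMP3, a metalloprotease inhibitor that overlaps SYN3, had 208, 197 and 203 CPM with H2O2, against 116, 122 and 117 CPM without it. Both were higher in each exposed library than in any unexposed one. ADAMTS15, a protease of proteoglycans, was in the other direction, with 1.86 ± 0.367 CPM in siEP300.H2O2 and 5.43 ± 0.274 CPM in siEP300.

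Targets of TGF-beta and of YAP-TEAD also included more rises than falls. Of 29 TGF-beta and SMAD targets, 14 rose and 6 fell (median 0.22), and of 25 YAP-TEAD targets 10 rose and 3 fell (median 0.20). ANKRD1, a stretch-responsive nuclear protein of heart muscle, had 68.3, 72.6 and 73.0 CPM in siEP300.H2O2, against 16.98, 15.2 and 16.1 CPM in siEP300 (log2 2.14 ± 0.08). CCN2, the connective tissue growth factor, averaged 768 ± 87.8 CPM with H2O2 and 319 ± 9.25 CPM without it (log2 1.27 ± 0.09). F3, tissue factor, averaged 297 ± 1.48 CPM in siEP300.H2O2 and 114 ± 6.08 CPM in siEP300 (log2 1.38 ± 0.06). For these genes, too, the groups did not overlap. NT5E, the ecto-nucleotidase CD73, differed by 0.75 ± 0.06. Of 30 cytoskeletal and contractile genes, 15 rose and 2 fell (median 0.15): ACTA2, smooth muscle actin, had 16.2, 19.5 and 17.04 CPM with H2O2, against 4.97, 5.72 and 5.07 CPM without it, although it overlaps STAMBPL1 and also FAS, which rose as well, and reads of overlapping genes may not be separable. FHL2, a LIM protein of heart and focal adhesions, and ZYX, zyxin, which overlaps EPHA1, differed by 0.71 ± 0.05 and 0.46 ± 0.06.

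Most targets of ATF4, which induces amino acid synthesis and transport, fell. Of 31 tested, 20 were lower with H2O2 and 5 were higher (median -0.30); the 5 became 3 without library 11, 12, 4, 5 or 6. ASNS, asparagine synthetase, had 93.9, 97.2 and 111 CPM in siEP300.H2O2, against 199, 214 and 202 CPM in siEP300 (log2 -1.03 ± 0.06, edgeR adjusted p = 2.6e-08). PSAT1, of serine synthesis, had 167, 167 and 174 CPM with H2O2, against 314, 334 and 327 CPM without it. SLC7A11, the cystine importer that feeds glutathione synthesis and is also an NRF2 target, had 61.1, 52.1 and 53.8 CPM in siEP300.H2O2, against 105, 109 and 114 CPM in siEP300. All exposed libraries were lower in these genes. CHAC1, which degrades glutathione, averaged 13.1 ± 1.37 CPM with H2O2 and 23.8 ± 0.331 CPM without it. STC2, a secreted glycoprotein listed with both ATF4 and HIF targets, went the other way, with 406, 437 and 444 CPM with H2O2, against 204, 206 and 207 CPM without it. Its 3 exposed libraries were all higher.

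The promoters of ASNS at chr7:97872409-97872658 (minus strand) and CHAC1 at chr15:40953221-40953470 (plus strand) are shown for TGATGNAA, the letters of the C/EBP-ATF response element through which ATF4 acts. The search was chosen after the values were seen.
ASNS: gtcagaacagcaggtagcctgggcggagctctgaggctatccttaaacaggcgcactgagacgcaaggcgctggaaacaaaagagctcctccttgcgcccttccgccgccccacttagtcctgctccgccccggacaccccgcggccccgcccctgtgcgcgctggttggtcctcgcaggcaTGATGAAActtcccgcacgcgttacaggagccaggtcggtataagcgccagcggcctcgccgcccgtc
CHAC1: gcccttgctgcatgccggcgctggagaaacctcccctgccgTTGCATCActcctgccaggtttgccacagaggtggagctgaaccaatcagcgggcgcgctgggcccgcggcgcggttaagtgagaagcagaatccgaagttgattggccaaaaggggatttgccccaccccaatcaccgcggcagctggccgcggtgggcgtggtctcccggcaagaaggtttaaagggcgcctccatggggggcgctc
The matches, in capitals, begin 68 bases before the start of ASNS and, on the opposite strand, 209 bases before that of CHAC1. These letters stood in 6 of 24 promoters of the ATF4 list (25%), in 7 of 126 promoters of genes that fell at least 2-fold (5.56%), and in 1.67% of all promoters.

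Most sterol genes fell. Of 25 genes of sterol synthesis and uptake, 20 were lower and 0 were higher in edgeR (median -0.32; at an unadjusted p under 0.05 and in DESeq2, the higher ones were also 0). INSIG1, which retains the sterol sensor in the endoplasmic reticulum, had 235, 196 and 229.5 CPM in siEP300.H2O2, against 516, 491 and 480.2 CPM in siEP300 (log2 -1.17 ± 0.08). SREBF2, the gene of SREBP2 itself, had 176, 169 and 181 CPM in siEP300.H2O2, against 279.8, 275 and 267 CPM in siEP300 (log2 -0.64 ± 0.06). The groups were apart in both genes. DHCR7, of the last step of cholesterol synthesis, differed by -0.78 ± 0.06. The fatty acid list was mixed, with 9 of 29 genes lower and 6 higher (median -0.11; 3 higher without library 12, 4 or 6). Its falls included SREBF1, the lipogenic factor (-0.76 ± 0.06), and the desaturase genes FADS1 and FADS2 (-0.91 ± 0.08 and -0.80 ± 0.06), neighbours whose annotations overlap; SREBF1 overlaps RAI1.

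SREBF2 has the sterol response element letters TCACNCCA in its promoter at chr22:41832855-41833104 (plus strand), beginning 133 bases before the start and given in capitals; this search, too, was chosen after the values were seen.
SREBF2: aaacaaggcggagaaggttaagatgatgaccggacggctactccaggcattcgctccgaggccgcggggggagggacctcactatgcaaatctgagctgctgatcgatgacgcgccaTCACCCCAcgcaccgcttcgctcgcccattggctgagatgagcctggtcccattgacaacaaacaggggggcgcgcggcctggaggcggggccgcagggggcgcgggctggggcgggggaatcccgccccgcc
TCACNCCA stood in 3 of 18 promoters of the sterol list (16.7%), against 3.45% of all promoters.

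Among lists of the peroxide defence, NRF2 targets fell more often than they rose. Of 27 NRF2 targets, 2 rose and 7 fell (median -0.08). The 2 rises were 0 without library 12, 5 or 6 and 1 without library 11 or 4. AKR1C3, an aldo-keto reductase, had 7.78, 6.57 and 8.66 CPM in siEP300.H2O2, against 16.7, 18.3 and 16.03 CPM in siEP300. The NADPH-producing malic enzyme ME1 averaged 39.5 ± 1.10 CPM with H2O2 and 55.4 ± 0.302 CPM without it. AKR1C3 was lower in every exposed library; genes of its family are similar in sequence, and how reads were shared among them is uncertain. Among 23 peroxide and superoxide scavenging enzymes, 4 rose and 2 fell (median 0.12; 2 rises without library 12, and 1 fall without any one of the 6 libraries). The rises are a share near that of all genes, and were 8 when the 6 EP300 siRNA libraries were fitted alone. GLRX, the glutaredoxin that reduces protein-glutathione disulphides, had 97.3, 105 and 113 CPM in siEP300.H2O2, against 60.2, 54.8 and 55.98 CPM in siEP300 (log2 0.88 ± 0.08), while CAT, catalase, averaged 23.1 ± 1.84 CPM with H2O2 and 30.1 ± 1.43 CPM without it (log2 -0.38 ± 0.08). GLRX overlaps RHOBTB3. Of 7 metallothionein genes tested, 1 rose and 1 fell, shares near those of all genes, and 2 rose without library 10. The riser, MT2A, a metal-binding thiol protein, averaged 248 ± 40.3 CPM with H2O2 and 114 ± 12.1 CPM without it. The antioxidant response element core, TGACN followed by NNGCA, stood in 2 of 21 promoters of the NRF2 list (9.52%), in 2.97% of promoters of genes that rose, and in 2.75% of all.

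Many genes for making and guarding proteins rose by small amounts. Of 32 ribosome biogenesis genes, 24 rose and 0 fell in edgeR (median 0.37; the falls were also 0 at an unadjusted p under 0.05 and in DESeq2). GNL3, nucleostemin, had 106, 115 and 119 CPM in siEP300.H2O2, against 77.05, 80.1 and 75.5 CPM in siEP300. POLR1C, shared by RNA polymerases I and III, had 28.1, 32.7 and 30.2 CPM with H2O2, against 17.5, 18.9 and 18.8 CPM without it. The groups did not overlap in either gene, and both overlap other genes in the annotation. NOLC1 and DKC1, of the nucleolus, differed by 0.45 ± 0.06 and 0.44 ± 0.06. Of 77 cytosolic ribosomal proteins, 0 were called in edgeR (median 0.10), against 6 higher and 0 lower at an unadjusted p under 0.05 and 2 higher in DESeq2. With library 10 left out, edgeR called 3 higher, and without library 5 it called 1. Fitted on the 6 EP300 siRNA libraries alone, edgeR called 22 higher, and with the gene length trend removed from each library 12 higher and 2 lower.

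Of 27 heat shock proteins, 15 rose and 3 fell (median 0.23; 0 fell without library 10). HSP90AA1, the inducible HSP90, averaged 2093 ± 115 CPM with H2O2 and 1384 ± 70.2 CPM without it (log2 0.60 ± 0.06). HSPH1, an HSP70 exchange factor, had 328, 328 and 335 CPM in siEP300.H2O2, against 243, 239 and 239.7 CPM in siEP300. The HSPH1 libraries did not overlap, and HSP90AA1 overlaps WDR20. GAANNTTC, the heat shock element core, was in 9 of 24 promoters of this list (37.5%), against 4.63% of all. Of 32 proteasome genes, 13 rose and 0 fell in edgeR (median 0.18; 8 rose without library 11; 0 also fell at an unadjusted p under 0.05 and in DESeq2), among them POMP, the assembly factor (0.49 ± 0.09), and the regulatory subunits PSMD12 (0.32 ± 0.05) and PSMD2 (0.32 ± 0.06). The endoplasmic reticulum list had 4 rises and 0 falls of 28 in edgeR (median 0.0025), and 2 rises without library 12. The 4 rises are a share near that of all genes. There were 2 falls at an unadjusted p under 0.05 and 0 in DESeq2. PPP1R15A, which reverses the translation block of the stress response, had 381 ± 51.7 CPM with H2O2 and 208 ± 6.29 CPM without it, and the unfolded protein sensor ERN1 had 19.4 ± 0.502 CPM with H2O2 and 10.8 ± 0.913 CPM without it.

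DNA replication genes fell by small amounts more often than they rose, and few mitotic genes were called. Of 42 DNA replication genes, 12 fell and 4 rose (median -0.09). MCM6, a replicative helicase subunit, averaged 178 ± 5.07 CPM in siEP300.H2O2 and 238 ± 1.503 CPM in siEP300. MCM5, of the same helicase, averaged 149 ± 7.402 CPM with H2O2 and 198 ± 3.73 CPM without it. The S phase factor E2F1 differed by -0.38 ± 0.07. The 12 falls became 6 without library 12 or 5 and 7 without library 6, and the 4 rises 2 without library 10, 11 or 4 and 1 without library 5. Of 36 mitotic genes, 4 rose and 3 fell (median 0.03): CDK1, the mitotic kinase, differed by 0.31 ± 0.05, UBE2C, of the anaphase-promoting complex, by 0.31 ± 0.07, and the kinesin KIF20A, which overlaps BRD8 and CDC23, by -0.51 ± 0.06. Both edgeR counts of mitotic genes are shares below those of all genes, 15.9% higher and 15.1% lower. On FPKM values with limma, 3 mitotic genes rose and 7 fell, which turns the balance. Without library 11 there were 2 rises, and without library 11, 12, 4 or 6 there was 1 fall.

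Of 17 tested replication-dependent histone genes, 8 fell and 0 rose in edgeR (median -0.80; 0 also rose at an unadjusted p under 0.05 and in DESeq2). H1-2, a linker histone, had 5.08, 6.402 and 4.19 CPM with H2O2, against 12.9, 14.1 and 12.4 CPM without it. H2BC12, a core histone gene, had 11.6, 12.3 and 9.81 CPM in siEP300.H2O2, against 21.1, 21.4 and 22.9 CPM in siEP300. Both were lower in every exposed library. Transcripts of these genes mostly lack poly(A) tails and the labels do not state how RNA was selected, so their low counts cover an unknown part of the transcripts. DNA repair genes showed 8 falls and 3 rises of 36 (median -0.04), with FANCA, of crosslink repair, at -0.20 ± 0.05 and ERCC2, of excision repair, at 0.22 ± 0.05. The 8 falls became 3 without library 11, 12, 4 or 6 and 4 without library 5.

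Metabolic and chromatin lists were divided. Of 28 hypoxia and HIF targets, 7 rose and 6 fell (median -0.04), and on FPKM values with limma 6 rose and 7 fell. CA9, carbonic anhydrase IX, had 6.402, 5.77 and 8.11 CPM in siEP300.H2O2, against 16.6, 17.3 and 16.2 CPM in siEP300; it overlaps ARHGEF39. The glucose transporter gene SLC2A3 had 277, 250.3 and 269 CPM with H2O2, against 187, 182 and 189 CPM without it. The exposed libraries were all lower for CA9 and all higher for SLC2A3. Of 23 glycolysis genes, 8 rose and 4 fell, HK1 (hexokinase, 0.44 ± 0.05) and ALDOC (aldolase C, -0.60 ± 0.09) among them. On FPKM values with limma, 5 glycolysis genes rose and 6 fell. The 4 falls were 2 without library 10, 4 or 5. Of 50 nuclear genes of the respiratory chain, 10 rose and 0 fell in edgeR (median 0.10; 6 rises without library 11 or 6; 0 also fell at an unadjusted p under 0.05 and in DESeq2), with UQCRC1, a core subunit of complex III, at 0.31 ± 0.07.

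Of 35 autophagy and lysosome genes, 8 rose and 6 fell, the falls being a share near that of all genes. SQSTM1, the cargo receptor p62, had 708 ± 41.3 CPM with H2O2 and 467 ± 13.4 CPM without it; it overlaps MGAT4B and MRNIP. The 6 falls were 3 without library 12 or 4. Of 23 genes of ferroptosis and iron, 4 rose, a share near that of all genes, and 5 fell. The 4 rises were 2 without library 11, 12, 4, 5 or 6. SAT1, of polyamine breakdown, had a log2 fold change of 1.00 ± 0.07. Among 21 lysine acetyltransferases, the family of EP300, 1 rose and 3 fell; the rise was not called without library 11, 12, 5 or 6 or on FPKM values. KAT6B differed by -0.49 ± 0.09, and CREBBP, the closest relative of EP300, had 141, 125 and 123 CPM in siEP300.H2O2, against 144, 139.7 and 146 CPM in siEP300, with an edgeR adjusted p of 0.224. The CREBBP libraries overlapped. Without library 6 there was 1 fall in this family and without library 10 there were 5. With all libraries, its rises are a share below that of all genes and its falls a share near it. Of 18 histone deacetylases and sirtuins, 2 rose and 3 fell, with HDAC9 at 0.65 ± 0.13 and HDAC6 at -0.44 ± 0.07. These counts, too, are shares near or below those of all genes.

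Markers of other cell types moved with H2O2 as well. Of 11 tested fibroblast markers, 8 fell and 2 rose (median -0.55; 0 rose without library 5 and 1 without any other one of the 6 libraries or in DESeq2), and their summed level was 4816 to 4855 CPM in siEP300.H2O2 and 7158 to 7414 CPM in siEP300. Most of that sum was collagen. The cardiomyocyte markers summed to 884.8, 814.5 and 848.2 CPM with H2O2 and to 848.0, 813.9 and 867.5 CPM without it, which overlap. Epithelial markers, chiefly the neighbours KRT8 and KRT18, which overlap, summed to 454.8 to 532.0 CPM with H2O2 and 338.2 to 343.4 CPM without it. Endothelial markers summed to 15.95 to 17.53 CPM in siEP300.H2O2 and 19.68 to 21.7 CPM in siEP300, with CDH5 and ERG at or near 0 counts. Leukocyte markers summed to 74.34 to 87.5 CPM in siEP300.H2O2 and 49.75 to 53.38 CPM in siEP300, carried by CD68; HLA-DRA had a median of 0 counts. All libraries are of 1 cell line, AC16, so these sums are levels of marker genes in that line and do not count other cell types. Bulk RNA cannot tell a change in all cells from a change in some of them. The part of these shifts in the gene groups was not tested.

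The response to H2O2 under the control siRNA was then set beside that under the EP300 siRNA. In siNC.H2O2 against siNC, 4647 genes were called, 35.3% of all genes tested. Of all genes tested, 17.8% were higher (2349) and 17.4% were lower (2298). Of the 2100 genes that rose under EP300 siRNA, 1372 (65.3%) rose under control siRNA too, which was 58.4% of the 2349. Of the 1995 that fell, 1225 (61.4%) also fell, 53.3% of the 2298. Only 16 rises and 21 falls under EP300 siRNA were called in the opposite direction under control siRNA. Across the 13171 genes, which are not independent, Pearson's r between the log2 fold changes was 0.66 and Spearman's rho was 0.68. On the deposited FPKM values, tested with limma, the split under control siRNA was 1621 higher and 3276 lower.

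Several leading genes had like values with both siRNAs. GDF15 had a log2 fold change of 4.27 ± 0.17 under EP300 siRNA and 4.34 ± 0.18 under control siRNA. In the same order of siRNAs, FOSL1 had 2.19 ± 0.09 and 2.24 ± 0.09, and IL1B had 3.21 ± 0.12 and 3.36 ± 0.11; none of these differences between siRNAs was called, the smallest edgeR adjusted p being 0.733. The p53 list had 19 rises of 27 under EP300 siRNA and 22 under control siRNA, and the NF-kB list had 20 of 28 under EP300 siRNA and 19 under control siRNA. The size of the change nevertheless differed between the siRNAs in 4 of the 28 NF-kB genes, each with a higher log2 fold change under EP300 siRNA, against 1.12% of all genes. These were IL11, BIRC3, NFKB1 and RELB, of which the last 3 are named after their values were seen. DESeq2 called 6 and limma on FPKM values 7. The 4 became 0 without library 5, 1 without library 12, 4, 8 or 3, and 2 without library 6 or 2. In the p53 list the change differed between the siRNAs in 2 of 27 genes, against 2.21% of all genes. Each had a lower log2 fold change under EP300 siRNA, and the count was 2 or 3 with 1 library left out. Immediate early genes had 30 rises of 40 with either siRNA, and ribosome biogenesis had 24 of 32 under EP300 siRNA and 23 under control siRNA.

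**Figure D4:**
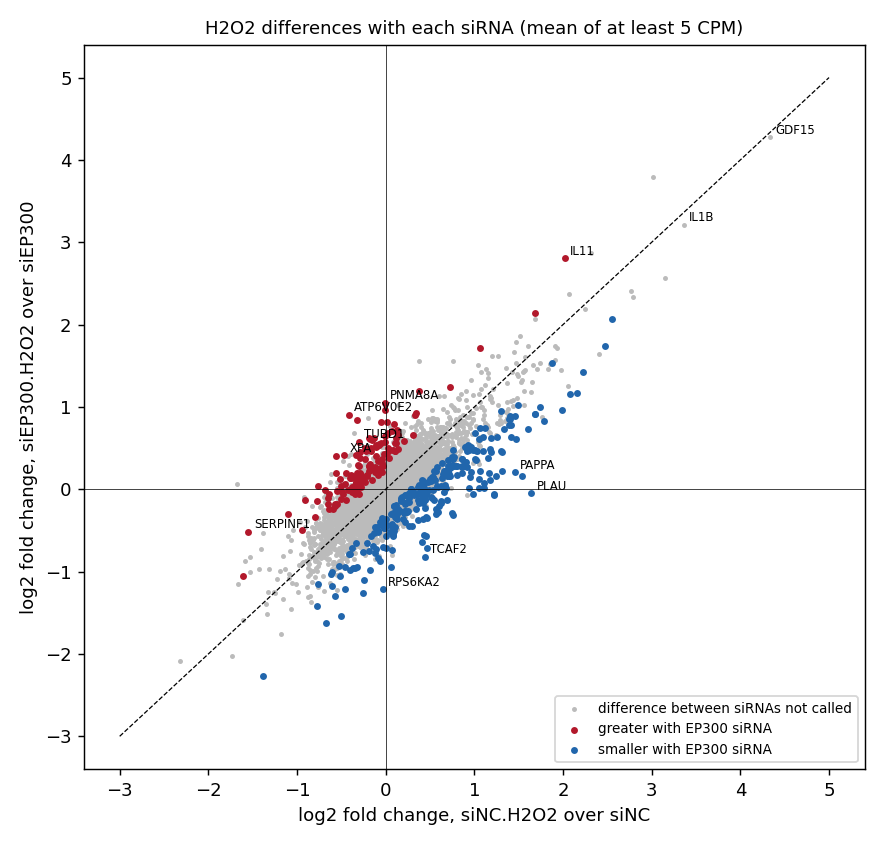
Log2 fold change of siEP300.H2O2 over siEP300 (vertical) against that of siNC.H2O2 over siNC (horizontal) for the 10747 genes whose mean was 5 CPM or more; the dashed line marks equal change. Coloured points are the 411 drawn genes whose change differed between the siRNAs. GDF15 and IL1B lie near the line, IL11 above it, and PLAU below it.

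The H2O2 change differed between the siRNAs at 439 genes (3.33%) in edgeR's test of the interaction, which is the log2 fold change under EP300 siRNA minus that under control siRNA. It was positive in 148 (1.12%) and negative in 291 (2.21%). On FPKM values with limma the split was 325 positive and 229 negative, so the prevailing sign turned with that scaling. Of the 291, 105 rose under control siRNA and were not called under EP300 siRNA, 82 rose with both, 60 fell only under EP300 siRNA, 23 fell with both, and 21 fell under EP300 siRNA while rising under control siRNA. Of the 148, 59 rose only under EP300 siRNA, 55 fell only under control siRNA, 16 rose under EP300 siRNA and fell under control siRNA, 9 rose with both and 9 fell with both. The size of this set was sensitive to single libraries. It was 196 without siEP300 library 4 and 212 without siEP300 library 6, but 709 without siNC.H2O2 library 7 and 681 without siNC library 1. It was 227 without siEP300.H2O2 library 11, 248 without library 12, 236 without siEP300 library 5, 232 without siNC.H2O2 library 8, and 252 and 234 without siNC libraries 2 and 3. With libraries 10, 7 and 1 left out together, an alternative chosen after seeing the data, 3409 genes were called, 1496 positive and 1913 negative, and 435 of the 439 were among them.

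PLAU, the urokinase protease, had the most negative interaction at a mean level of 5 CPM or more. It had 7.51, 6.75 and 7.61 CPM in siEP300.H2O2, against 7.75, 8.16 and 6.704 CPM in siEP300, and 36.6, 38.5 and 38.1 CPM in siNC.H2O2, against 12.5, 11.5 and 12.3 CPM in siNC. The groups overlapped under EP300 siRNA and were well apart under control siRNA. The interaction was -1.69 ± 0.12 (edgeR adjusted p = 1.24e-05). FBXO32, the muscle ubiquitin ligase atrogin-1, averaged 5.99 ± 0.679 CPM in siEP300.H2O2, 5.34 ± 0.296 CPM in siEP300, 25.2 ± 1.09 CPM in siNC.H2O2 and 8.66 ± 0.749 CPM in siNC (interaction -1.38 ± 0.15). PAPPA, a protease that releases insulin-like growth factors, averaged 16.96 ± 2.09 CPM in siEP300.H2O2, 14.7 ± 0.421 CPM in siEP300, 18.9 ± 3.17 CPM in siNC.H2O2 and 6.88 ± 1.77 CPM in siNC. Both rose under control siRNA and did not pass the test under EP300 siRNA. The glycoprotein gene STC1 and the circadian repressor gene BHLHE41 had interactions of -1.29 ± 0.17 and -1.28 ± 0.17 with the same calls; BHLHE41 overlaps SSPN.

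A further 3 of the 8 leading negative genes fell under EP300 siRNA. DDIT4, which restrains mTORC1, had 32.1, 31.5 and 36.1 CPM in siEP300.H2O2, against 50.5, 58.4 and 54.7 CPM in siEP300, and 60.2, 57.1 and 49.6 CPM in siNC.H2O2, against 35.5, 39.6 and 45.6 CPM in siNC. It was lower in every exposed library under EP300 siRNA and rose under control siRNA (interaction -1.18 ± 0.14). TCAF2, an ion channel partner, likewise fell under EP300 siRNA and rose under control siRNA, with log2 fold changes of -0.82 and 0.44. RPS6KA2, an ERK-dependent kinase, had log2 fold changes of -1.22 under EP300 siRNA and -0.03 under control siRNA, and its interaction of -1.18 ± 0.26 was not called without library 4, 5, 8, 2 or 3.

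**Figure D5:**
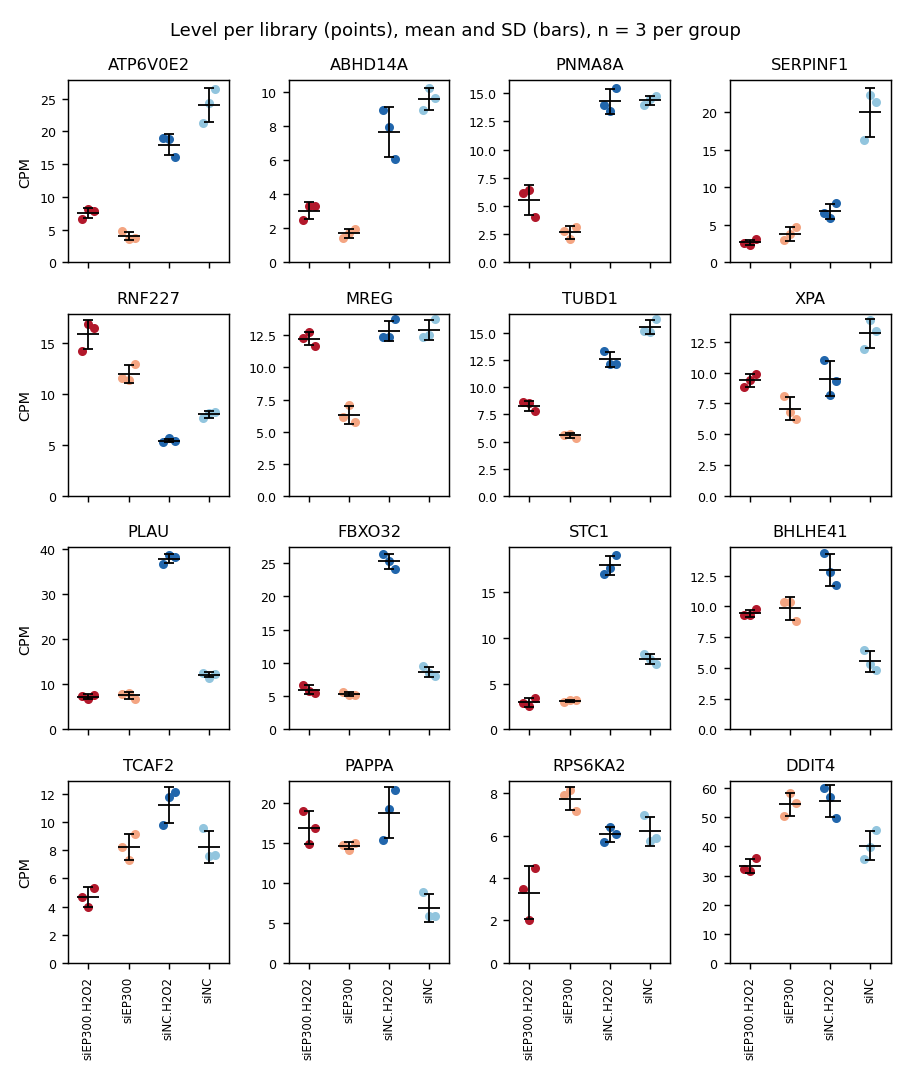
CPM per library (points) with the mean and SD (bars, n = 3) in siEP300.H2O2, siEP300, siNC.H2O2 and siNC, from left to right, for the 8 genes with the most positive and then the 8 with the most negative interaction; each axis starts at 0. PLAU lies flat under EP300 siRNA and is raised in siNC.H2O2; ATP6V0E2 is higher in siEP300.H2O2 than in siEP300 and lower in siNC.H2O2 than in siNC.

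Among the positive interactions, ATP6V0E2, a subunit of the vacuolar proton pump, had 6.68, 8.12 and 7.77 CPM in siEP300.H2O2, against 4.75, 3.51 and 3.76 CPM in siEP300, and 19.02, 18.9 and 16.1 CPM in siNC.H2O2, against 21.3, 24.3 and 26.5 CPM in siNC. It rose under EP300 siRNA and fell under control siRNA (interaction 1.32 ± 0.18, edgeR adjusted p = 0.00125). RNF227 and TUBD1, delta-tubulin, had the same pair of directions, with interactions of 0.97 ± 0.14 and 0.88 ± 0.12. MREG, melanoregulin, averaged 12.2 ± 0.532 CPM in siEP300.H2O2, 6.31 ± 0.6999 CPM in siEP300, 12.8 ± 0.795 CPM in siNC.H2O2 and 12.9 ± 0.769 CPM in siNC (interaction 0.96 ± 0.13); it overlaps PECR. XPA, a damage-recognition protein of excision repair, had log2 fold changes of 0.41 under EP300 siRNA and -0.47 under control siRNA, and its rise under EP300 siRNA was not called without library 11, 12, 5 or 6. The interaction of PNMA8A (1.06 ± 0.23) was not called without library 11, 4, 5 or 8, and that of ABHD14A (1.17 ± 0.25), which overlaps ABHD14B, PCBP4 and a readthrough gene, was not called without library 11, 12, 4 or 5. SERPINF1, the antiangiogenic factor PEDF, fell under control siRNA (-1.55); its interaction of 1.03 ± 0.27 had an edgeR adjusted p of 0.0499 and was lost in 9 of the 12 single-library omissions. IL11 was the only leading rise with a called interaction (0.78 ± 0.16, adjusted p 0.0154), and it was not called without library 5.

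Interaction calls per list were read against 1.12% positive and 2.21% negative over all genes. Extracellular matrix and fibroblast genes had 13 negative of 33, and ranged from 10 to 20 negative over the single-library omissions, with 20 without siNC.H2O2 library 7. They had 4 rises and 17 falls under EP300 siRNA (median -0.33) and 14 rises and 10 falls under control siRNA (median 0.10). COL1A1 had log2 fold changes of -0.56 ± 0.05 under EP300 siRNA and -0.16 ± 0.05 under control siRNA, and PDGFRB had -0.73 ± 0.08 under EP300 siRNA and -0.11 ± 0.08 under control siRNA. Of 27 matrix proteases and inhibitors, 8 were negative, with 5 without library 4. TIMP3 averaged 203 ± 5.37 CPM in siEP300.H2O2, against 118 ± 3.52 CPM in siEP300, and 240.4 ± 6.46 CPM in siNC.H2O2, against 91.9 ± 8.46 CPM in siNC (SD, n = 3 each). It rose with both siRNAs and by less under EP300 siRNA (interaction -0.61 ± 0.09, edgeR adjusted p = 0.00152), as did DUSP6 of the immediate early list (-0.74 ± 0.11). Of 29 TGF-beta targets, 7 were negative and 1 positive, and the 7 became 4 without library 11, 12, 4, 6, 8, 9 or 3.

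ATF4 targets had 10 negative of 31, between 8 and 12 over the single-library omissions. Under EP300 siRNA 20 fell and 5 rose (median -0.30), whereas under control siRNA 7 fell and 6 rose (median 0.0065). With the EP300 siRNA value first and the control siRNA value second, the log2 fold changes were -1.03 ± 0.06 and -0.62 ± 0.07 for ASNS, -0.94 ± 0.06 and -0.46 ± 0.06 for PSAT1, and -0.87 ± 0.09 and -0.07 ± 0.11 for CHAC1. CHAC1 was not called under control siRNA, and its interaction was -0.80 ± 0.15 (edgeR adjusted p = 0.00771). SLC7A11 had -0.98 ± 0.11 under EP300 siRNA and -0.18 ± 0.13 under control siRNA. Without H2O2, these genes were already higher in siEP300 than in siNC. The log2 fold changes were 1.45 for ASNS, 1.95 for PSAT1, 1.60 for CHAC1 and 2.46 for SLC7A11. With H2O2 they stayed higher in siEP300.H2O2 than in siNC.H2O2, by 1.04, 1.47, 0.79 and 1.66 in that order. STC2, of the same list, went the other way, with -0.26 without H2O2 and -0.57 with it. These values are given for named genes and not for the whole list. With 1 library left out in turn, the interaction was not called in 8 of 12 omissions for ASNS and in 6 for SLC7A11. Of 28 HIF targets, 8 were negative, from 6 to 9 over the omissions; NDRG1, a hypoxia-induced growth suppressor, fell under EP300 siRNA (-0.57 ± 0.06) and was not called under control siRNA (0.08 ± 0.06), with an interaction of -0.65 ± 0.09.

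Replication and mitosis lists took opposite signs in the interaction. Of 42 DNA replication genes, 10 had a positive interaction: 12 fell under EP300 siRNA (median -0.09) and 30 under control siRNA (median -0.34). MCM6 had a log2 fold change of -0.42 ± 0.05 under EP300 siRNA and -0.57 ± 0.05 under control siRNA, a difference that was not called (edgeR adjusted p = 0.233). Of 36 mitotic genes, 8 had a negative interaction: 4 rose under EP300 siRNA (median 0.03) and 22 under control siRNA (median 0.23). These counts moved with single libraries. The 10 replication genes became 2 without library 4, 6 or 8 and 19 without library 7, and lay between 3 and 6 without library 10, 11, 12, 5, 9, 2 or 3 and at 16 without library 1. The 8 mitotic genes became 3 without library 11 or 4, 4 without library 12, 5 or 8, and 5 without library 6, 2 or 3.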

How the data were processed

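RNA was sequenced from 12 libraries of AC16 cells, in 4 groups of 3 by their titles. The authors deposited a table of estimated counts per gene, not scaled between libraries, and a table of FPKM, fragments scaled to gene length and library total. The build was GRCh38.p13 and the tools included HISAT and Bowtie2, per the submitters' processing notes; the counting rule, strand setting and versions were not given in the sources used here. In each library 12.00% to 13.76% of the counts were not whole, and all were rounded before testing.

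Tests on the counts used edgeR 4.0.16 under R 4.3.3 (quasi-likelihood test, TMM scaling, filterByExpr, 1 mean per group over all 12 libraries, 8 residual degrees of freedom, two-sided, Benjamini-Hochberg adjustment). The biological coefficient of variation was 6.72%. CPM are counts relative to the TMM-scaled total. SEs were derived from the same fit, as the absolute log2 fold change divided by the square root of the test's F statistic. Alternatives used limma 3.58.1 on log2 FPKM plus 1 or 0.1, DESeq2 1.42.0, other scalings and filters, a per-library gene length correction, and each library left out. The pipeline was tested on simulated data.

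Named genes are the 12 largest called differences each way at a mean of 5 CPM or more, the 8 largest interactions each way, and up to 4 genes per list; some that this rule names are not reported here. Members and lists were chosen with earlier results of these data known. Promoters are RefSeq sequences of GRCh38.p14 and were matched by symbol for 10664 of the tested genes.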

Additional observations from a re-analysis of the deposited data

Results flagged for a closer look

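The H2O2 change differed between the siRNAs at 439 genes in edgeR's test of the interaction, which is the log2 fold change under EP300 siRNA minus that under control siRNA. Each value below is that difference for a gene named in the report or by the naming rule, and each passed an adjusted p under 0.05.

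Among the leading rises and falls, the interactions were IL11 0.78, C4B -0.88, TMEM143 -0.96 and ASS1 -0.65. The leading positive values were ATP6V0E2 1.32, ABHD14A 1.17, PNMA8A 1.06, SERPINF1 1.03, RNF227 0.97, MREG 0.96, TUBD1 0.88 and XPA 0.88. The leading negative values were PLAU -1.69, FBXO32 -1.38, STC1 -1.29, BHLHE41 -1.28, TCAF2 -1.26, PAPPA -1.25, RPS6KA2 -1.18 and DDIT4 -1.18.

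Among list members, amino acid and glutathione genes had SLC7A11 -0.80, ASNS -0.41, PSAT1 -0.48 and CHAC1 -0.80. Matrix and protease genes had COL1A1 -0.40, PDGFRB -0.62, TIMP3 -0.61, PLAUR -0.47 and ADAMTS15 -1.03. Sterol genes had INSIG1 -0.57 and DHCR7 -0.37, and hypoxia genes had CA9 -0.73, SLC2A3 -0.39 and NDRG1 -0.65. The remaining members were KIF20A -0.43, HSPA4L 0.64, ANKRD1 0.47, NT5E -0.37, DUSP6 -0.74 and ACTN1 -0.35.

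With 1 of the 12 libraries left out in turn, 22 of these 40 genes passed in every omission and 18 did not. The call was lost in 10 omissions for ACTN1, in 9 for C4B, SERPINF1, ANKRD1 and NT5E, in 8 for ASNS and PLAUR, in 7 for CA9, in 6 for SLC7A11, in 5 for KIF20A and RPS6KA2, in 4 for ABHD14A, PNMA8A, DHCR7 and HSPA4L, in 2 for SLC2A3, and in 1 for IL11 and INSIG1. C4B had an interaction of -0.035 on FPKM with a pseudocount of 1 and -0.69 with a pseudocount of 0.1, and limma called neither (adjusted p = 0.937 and 0.129). ADAMTS15, which passed in every omission, had -0.12 with a pseudocount of 1, and limma did not call it there (adjusted p = 0.52). NT5E, ACTN1 and HSPA4L were called by limma at neither pseudocount. CA9 was not called at a pseudocount of 1, and RPS6KA2, SLC7A11 and ASNS were not called at 0.1.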

How the results depend on the processing

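Under EP300 siRNA the count of genes called stayed within 1.5 times of 4095 in every alternative, from 3019 to 3923 with 1 library left out, 5194 with only the 6 libraries of the comparison and 5398 with the gene length trend removed. The interaction count of 439 moved more. It was 196 to 709 with 1 library left out, 1108 with the length trend removed, and 3409 with libraries 10, 7 and 1 left out, a setting chosen after seeing the data; the cause was not tested. The correlation of the H2O2 differences under the EP300 and control siRNAs, 0.6598, was 0.2596 with no low-count filter, 0.7869 at a mean of at least 5 CPM, 0.7566 and 0.7174 on FPKM with pseudocounts of 1 and 0.1, 0.7448 with only the groups compared, and 0.6168 to 0.6693 with 1 library left out. Of 2380 values for 171 named genes under EP300 siRNA, 39 lost their call, 12 gained it and 0 changed direction. Of 860 interaction values for 43 genes, 136 lost their call and 0 changed direction. List counts moved by over 1.5 times in 156 of 1092 values. No paired analysis was possible because the labels number the libraries from 1 to 12 and no number is shared between groups. Genes near the count filter, such as the histones, have wide errors at this depth, and 3 libraries per group limit precision.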

Other observations

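Of the motifs searched, 3 were not described above. CCAAT, on both strands, stood in 15 of 18 promoters of the sterol list (83.3%), in 15 of 24 of the ATF4 list (62.5%) and in 36.6% of all 10664 promoters. ACGTG, the core of the hypoxia response element, stood in 13 of 26 promoters of the ribosome biogenesis list, in 26.8% of promoters of genes that rose under EP300 siRNA and in 26.4% of all. TTTGAA, the cell cycle homology region, stood in 10.5% of promoters of genes that fell and in 9.86% of all. Matches of any pair of searched motifs overlapped in at most 24 promoters. These shares are descriptions with no test. Smooth muscle markers had 3 rises and 2 falls of 9 tested with H2O2 under EP300 siRNA, and summed to between 871.0 and 1047 CPM in siEP300.H2O2 and between 757.6 and 774.1 CPM in siEP300.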
